A study of Saccharomyces cerevisiae with 9 samples.

Results

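The tRNAs of methionine, isoleucine and tryptophan were examined on tRNA microarrays of budding yeast with and without Not1, the scaffold of the Ccr4-Not complex. A tRNA microarray carries DNA probes complementary to single tRNA isoacceptors. The members were taken by name, as every probe called Met followed by a number and h, or Ile or Trp followed by a number and y, with no prefix. This gave 5 of 64 tRNA probes: Met1h, Met2h, Ile1y, Ile2y and Trp1y. There were 9 arrays. A group of 3 charging arrays came from cells with a Not1 degron (strain MY13523, NOT1-AID-Myc6), in which auxin triggers breakdown of the tagged protein. Another 3 charging arrays came from the wild-type control strain MY13472, which has no tagged Not1. Both strains are MATa in the sample records and carry the plant auxin receptor OsTIR1 under the ADH1 promoter. The last 3 were abundance arrays, each hybridized with RNA of both strains. Cells were grown in YPD, and by the sample records both strains received 1 mM auxin over 15 min, whereas the methods also describe a control treatment with ethanol. The paper's strain list gives another number, tag and mating type for the Not1 degron. The cultures were grown independently. A measure of how far Not1 was depleted in these cultures was not analysed here.

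Methionine and tryptophan each have a single codon, AUG and UGG. Isoleucine takes the other codons of the AUN box, AUU, AUC and AUA. Methionine is served by separate tRNAs for the start of translation and for elongation, and the initiator carries the methionine with which nearly every yeast protein begins. In yeast the isoleucine codons are read by a major tRNA with anticodon AAU, whose first base is modified to inosine, and a minor one with anticodon UAU, which reads AUA. The tryptophan tRNA gene is interrupted by an intron next to the anticodon. Each tRNA is charged by the synthetase of its amino acid, Mes1, Ils1 or Wrs1 in the yeast cytoplasm, and uncharged tRNA is the signal sensed by the kinase Gcn2.

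The genes behind these probe names are shown to make plain how different the tRNAs are that a probe must tell apart. The R64 genome of RefSeq annotates 10 nuclear tRNA-Met genes, of which 5 are initiators and 5 elongators. There are 15 nuclear tRNA-Ile genes, 13 with anticodon AAU and 2 with UAU, and 6 tRNA-Trp genes. Mature sequences of 1 gene each are printed as DNA without the intron and without the CCA end, with the anticodon in capitals. All copies were identical within each set except the UAU set, where the 2 genes had 2 distinct sequences. The genes shown lie at chrIII:149920-149991 (plus strand), chrIV:1175829-1175901 (plus), chrII:197494-197567 (plus), chrIV:884361-884493 (plus) and chrVII:287350-287455 (minus).
Initiator tRNA-Met (YNCC0008W): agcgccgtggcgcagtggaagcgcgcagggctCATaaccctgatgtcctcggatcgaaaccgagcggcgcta
Elongator tRNA-Met (EMT1, YNCD0025W): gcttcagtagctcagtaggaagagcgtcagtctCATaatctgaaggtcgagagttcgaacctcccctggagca
tRNA-Ile, anticodon AAU (YNCB0004W): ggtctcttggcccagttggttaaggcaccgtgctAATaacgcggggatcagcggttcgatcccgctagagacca
tRNA-Ile, anticodon UAU (YNCD0017W): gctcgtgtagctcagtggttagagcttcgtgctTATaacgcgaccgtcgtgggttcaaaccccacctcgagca
tRNA-Trp (YNCG0009C): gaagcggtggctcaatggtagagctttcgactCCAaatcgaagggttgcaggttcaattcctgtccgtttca
The initiator had 72 bases and the elongator 73, and after alignment they were identical in 63.6% of columns. The AAU and UAU isoleucine tRNAs were identical in 64.5%. The elongator tRNA-Met and the UAU tRNA-Ile were the most alike of the 10 pairs, with 71.6%, and the AAU tRNA-Ile and tRNA-Trp the least alike, with 51.9%. The UAU isoleucine genes contained an intron of 60 bases and the tryptophan genes one of 34. The array tables pair no probe with a gene, a codon or a sequence, so it was not established which of Met1h and Met2h detects the initiator, or which of Ile1y and Ile2y detects the UAU tRNA. The methionine names end in h, as do the names of the tRNA standards His1h and Ser3h, and what the letter means for the methionine probes was not established. Cross-hybridization between the probes was not tested.

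Each charging array compared a culture's charged tRNA, which resists periodate and was labelled with Cy3, with all of its tRNA, labelled with an Atto dye. Dividing Cy3 by Atto gives the charged fraction, here scaled so that the median of 4 tRNA standards added in vitro (EcTyr2, EcLys2, His1h and Ser3h) equals 100%. The scale is therefore only as firm as the standards, which spanned 1.99 to 3.70 in log2 ratio among themselves on a charging array, and values above 100% occurred. Abundance arrays carried the depleted strain's tRNA in Cy3 and the wild-type's in Atto, with no dye swap. Atto intensities of the 5 probes, as medians of repeated spots, exceeded the 95th percentile of the blank spots on 8 of 9 arrays. The exception was wild-type charging replicate 1, where that percentile was 5739 against 31.0 to 327 on the other arrays. On that array 35.2% of the 108 blank spots gave signal above background, against at most 10.2% elsewhere, and 5 of the 6 Met1h spots but none of the 6 Met2h spots lay in blocks with at least 3 such blanks. Values without that array are given below where they turn a direction. No member spot was saturated. Repeated spots of a member on 1 array differed in log2 ratio by an SD of 0.04 to 0.40, whereas the replicate arrays of a strain differed by an SD of 0.52 to 0.95, so the array and not the spot set the error.

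The charged fraction of the 5 members did not separate the strains (limma, 0 of 64 probes called, 0%, at a Benjamini-Hochberg adjusted p of 0.05). The lowest and highest member values of all 6 arrays were 44.0% and 204%. Met1h read 199%, 69.9% and 106% on the Not1 depleted arrays and 116%, 158% and 48.7% on the wild-type arrays. The wild-type values lay inside the range of the Not1 depleted values apart from the lowest. Means were 125% ± 66.9 and 108% ± 55.0 (SD, n = 3 each), a log2 change of 0.24 with a standard error of 0.47 and a 95% interval from -0.68 to 1.16. The limma errors and intervals given here and below share a variance between the 64 probes as if these were independent, and can be too narrow.

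Met2h, the other methionine probe, read 204%, 56.7% and 80.7% in Not1 depleted cells and 121%, 173% and 67.4% in the wild-type. The groups overlapped, with the highest and the lowest value both in Not1 depleted cells. Means were 114% ± 78.9 and 120% ± 52.8, a log2 change of -0.20 (95% interval -1.11 to 0.72).

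Ile1y was lower in charged fraction than the other members on most arrays. It read 128%, 51.3% and 90.9% in Not1 depleted cells and 83.8%, 94.7% and 44.0% in the wild-type. The groups overlapped. Means were 90.0% ± 38.2 and 74.2% ± 26.7, a log2 change of 0.26 (95% interval -0.66 to 1.17).

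Ile2y, the second isoleucine probe, read 146%, 68.5% and 103% in Not1 depleted cells and 92.2%, 128% and 62.7% in the wild-type. Again neither strain lay above the other. Means were 106% ± 39.0 and 94.4% ± 32.9, a log2 change of 0.16 (95% interval -0.76 to 1.07).

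Trp1y, the only tryptophan probe without a prefix, read 183%, 69.7% and 101% in Not1 depleted cells and 137%, 156% and 62.9% in the wild-type. The means were 118% ± 58.3 and 119% ± 49.3, with a log2 change of -0.02 (95% interval -0.94 to 0.89). Without wild-type charging replicate 1 the change of Trp1y was 0.13. Of the 5 changes 3 were above 0 and 2 below, with a median of 0.16, beside a median of 0.00 over all 64 probes. The adjusted p of every member was 0.994 (limma), and the groups overlapped for all 5 members as for all 64 probes.

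**Figure D1:**
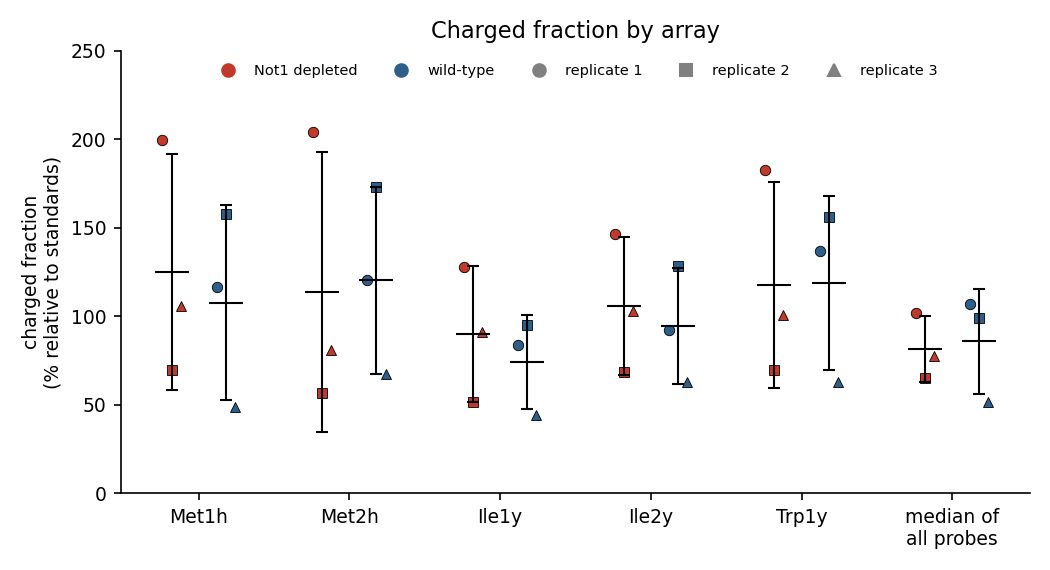
Charged fraction in percent relative to the standards (vertical axis) of the 5 probes and the median of all 64 probes, for the 3 Not1 depleted (red) and the 3 wild-type (blue) charging arrays, with the marker shape giving the replicate number and bars the mean ± SD. The members follow the array: Not1 depleted replicate 1 is the highest and replicate 2 the lowest of its group for every member, and wild-type replicate 3 is the lowest of its group throughout.

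The members rose and fell together with the array as a whole. The median of all 64 probes was 102%, 64.9% and 77.5% on the Not1 depleted arrays and 107%, 99.1% and 51.8% on the wild-type arrays. Set against that median, Trp1y stood above it on 6 of 6 arrays, Met1h, Met2h and Ile2y on 5 of 6 and Ile1y on 2 of 6. Trp1y ranked between 7 and 22 of 64 from the top on these arrays, and Met2h varied most, between 2 and 40. With the array median removed, the differences between the strains were 0.27 for Met1h, -0.16 for Met2h, 0.29 for Ile1y, 0.19 for Ile2y and 0.01 for Trp1y on the log2 scale. The exact permutation test over arrays gave 0.6, 0.7, 0.3, 0.5 and 0.9, where 3 against 3 arrays allow no p below 0.1.

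By the mean over the 6 charging arrays on the log2 scale the members stood in the order Trp1y (0.13 ± 0.63, SD), Met1h (0.07 ± 0.75), Met2h (0.07 ± 0.75), Ile2y (-0.06 ± 0.48) and Ile1y (-0.38 ± 0.58). Differences taken within an array, which are free of the scaling, place the first 4 close together. Trp1y minus Met1h was 0.06 ± 0.19, Met1h minus Met2h 0.00 ± 0.31 and Met2h minus Ile2y 0.13 ± 0.37, each with an SD above its mean. Ile2y minus Ile1y was 0.31 ± 0.16. Ile1y was the lowest member on 5 of 6 arrays, and Met2h was the lowest on the other, Not1 depleted replicate 3. Trp1y, Met1h and Ile2y each exceeded Ile1y on 6 of 6 arrays. This order describes ratios of dyes on different probes, and a difference in how 2 probes bind the labelled strands was not tested.

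The methionine probes were then set against each other. Met1h and Met2h stand at the same position of the print in different blocks, 6 blocks each, so both were read on every array. Their difference in log2 ratio (Met1h minus Met2h) was -0.03, 0.30 and 0.39 on the Not1 depleted arrays. On the wild-type arrays it was -0.05, -0.13 and -0.47. All 3 wild-type values were thus below the lowest Not1 depleted value. Over the 6 arrays the mean difference was 0.00 ± 0.31 (SD), with an exact two-sided sign-flip p of 1, and 2 arrays lay above 0. Between the strains the difference was 0.44 (0.22 ± 0.22 against -0.22 ± 0.22), with an exact permutation p of 0.1, the smallest that 3 against 3 arrays can give. Without wild-type charging replicate 1 it was 0.52 (exact p = 0.2, 2 arrays against 3), and with the blocks that held lit blanks left out it was 0.46 (exact p = 0.1).

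A second reading of the same pair came from the fifth row of each block, whose spots carry no usable name in the deposited order. The print runs through the tRNA names alphabetically, and this order places both Met1h and Met2h in every block of that row, in columns 6 and 8, with an isoleucine probe in column 7 between them. The names so assigned were checked against the named spots by the root mean square distance of their log2 ratios over the 9 arrays. For 18 of 20 positions the nearest of the 64 probes was the one assigned. An exception was Met1h in the 6 blocks in which Met2h has its named spots. There the assigned name was only the 10th nearest, at a distance of 0.26, and the closest was Leu2y. The other exception was the position assigned to Leu1y in the remaining blocks. Its closest probe was Met1h, and Leu1y was the 3rd nearest. Within blocks of that row, Met1h minus Met2h was -0.22, 0.40 and 0.33 in Not1 depleted cells and 0.11, -0.13 and -0.38 in the wild-type. The strains overlapped here. It was above 0 in 12 of 12 blocks on Not1 depleted replicates 2 and 3, and below 0 in 9 of 9 and 12 of 12 on wild-type replicates 2 and 3. On both arrays of replicate 1 the blocks were mixed, 6 of 12 above 0 in Not1 depleted cells and 7 of 12 in the wild-type. The difference between the strains was 0.30 (exact permutation p = 0.3), and 0.34 (p = 0.3) when these spots were added to the named ones. With more spots, therefore, the difference was smaller than 0.44 and the strains overlapped.

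The isoleucine probes differed in the same direction in both strains. Ile1y minus Ile2y was -0.20, -0.42 and -0.18 on the Not1 depleted arrays and -0.14, -0.44 and -0.51 on the wild-type arrays. All 6 values were below 0, with a mean of -0.31 ± 0.16 (SD). The exact sign-flip p was 0.03125, the smallest that 6 arrays allow, and 0.0625 after Benjamini-Hochberg adjustment over the 2 pairs compared. This pair was tested after its values had been seen, so the p describes the values and is no independent test. Between the strains the difference was 0.10 (exact permutation p = 0.6). On the abundance arrays the pair differed by -0.16, 0.00 and -0.02, a mean of -0.06 ± 0.09. Repeated Ile1y spots were less even than those of Ile2y. Their SD in log2 ratio had a median over the 9 arrays of 0.25, against 0.11 for Ile2y. In log2 Atto intensity it was 0.92 against 0.22.

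**Figure D2:**
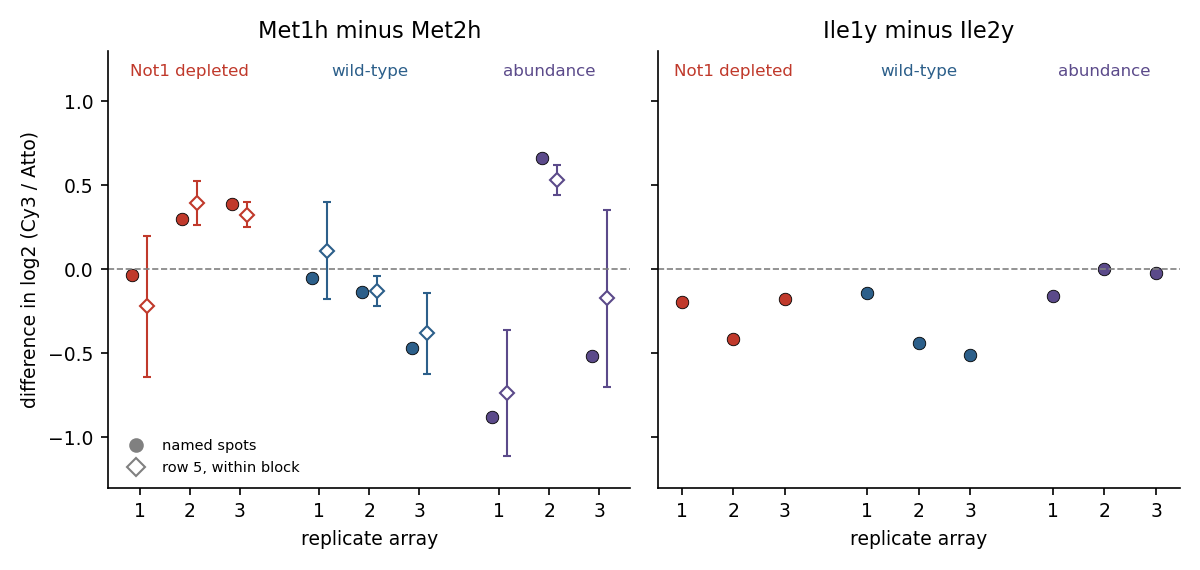
Difference in log2 (Cy3 / Atto) between the methionine probes (left) and between the isoleucine probes (right) on each of the 9 arrays, grouped by kind of array, with filled circles for named spots and open diamonds for the fifth row (mean ± SD over blocks). The methionine difference changes sign from array to array, and the isoleucine difference is below 0 on all 6 charging arrays and between -0.16 and 0.00 on the abundance arrays.

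The total tRNA signal, the Atto intensity relative to the standards on the charging arrays, was not called different for any probe (limma, 0 of 64, 0%). On the log2 scale Met1h gave 2.49, 3.18 and 2.61 in Not1 depleted cells and 3.44, 1.87 and 3.58 in the wild-type. Met2h gave 2.79, 3.86 and 3.00 against 4.41, 2.70 and 4.07. For both methionine probes wild-type replicate 2 was the lowest array of all, and wild-type replicates 1 and 3 lay above all 3 Not1 depleted arrays.

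Ile1y gave 1.41, 1.98 and 2.08 in Not1 depleted cells and 3.36, 0.20 and 2.95 in the wild-type. Ile2y gave 1.51, 1.77 and 1.80 against 2.62, 0.90 and 2.43, and Trp1y 1.48, 1.16 and 1.14 against 1.73, 0.49 and 2.02. The wild-type arrays lay on both sides of the Not1 depleted ones for all 5 members. The changes were -0.21 for Met1h, -0.52 for Met2h, -0.35 for Ile1y, -0.29 for Ile2y and -0.15 for Trp1y, with standard errors of 0.60 to 0.61 and an adjusted p of 0.961 throughout. All 5 were below 0, as were 25 of all 64 probes, whose median change was 0.15. None of those 25 had a name with the prefix m, and the lowest probe with that prefix stood at 0.25 (mAla1y). The members were thus below 0 together with most probes that lack the prefix. Without wild-type charging replicate 1 only Met2h of the members stayed below 0, at -0.17. The other members stood at 0.03 (Met1h), 0.25 (Ile1y), 0.04 (Ile2y) and 0.0045 (Trp1y).

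**Figure D3:**
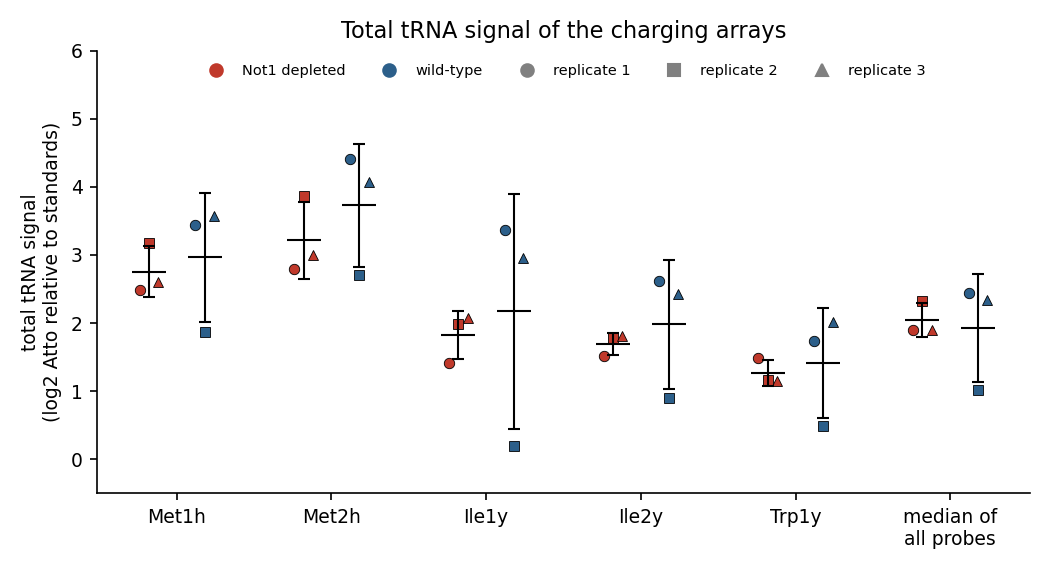
Total tRNA signal as log2 Atto intensity relative to the standards (vertical axis) of the 5 probes and the median of all 64 probes on the charging arrays, Not1 depleted in red and wild-type in blue, with marker shapes for replicates and bars for mean ± SD. For every member the 3 wild-type values lie on both sides of the Not1 depleted values.

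On the abundance arrays the mean log2 ratio (depleted over wild-type) was below 0 for all 5 members, and no probe passed the threshold (limma, 0 of 64, 0%). The ratio is relative to the standards, which spanned 0.60 to 2.32 in log2 ratio among themselves on an abundance array. In a bulk extract, less tRNA per cell, fewer cells and less RNA loaded cannot be told apart. Met1h had log2 ratios of -2.50, 0.34 and -1.38 on abundance arrays 1, 2 and 3. Met2h had -1.62, -0.32 and -0.87. Met2h was the only member below 0 on all 3 arrays, which held for 19 of 64 probes (29.7%, counting both directions). None of the 19 had the prefix m.

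Ile1y had log2 ratios of -2.02, 0.15 and -1.02, Ile2y -1.86, 0.15 and -0.997, and Trp1y -2.22, 0.06 and -1.27. Array 2 stood above 0 for each of these, and array 1 was the lowest for every member. The means were -1.18 for Met1h, -0.94 for Met2h, -0.96 for Ile1y, -0.90 for Ile2y and -1.14 for Trp1y, each with a standard error of 0.58, which amounts to ratios of 0.441, 0.522, 0.514, 0.536 and 0.453. Adjusted p values lay between 0.209 and 0.238 (limma). The size of these ratios depended on the processing. With a loess trend removed within each array they were -0.22, -0.32, -0.29, -0.088 and -0.31 on the log2 scale in the same order, without scaling -0.66, -0.42, -0.44, -0.38 and -0.62, and with the names as deposited -0.15, -0.19, -0.087, -0.027 and 0.14. Other settings enlarged them. Without background correction they were -1.41, -1.23, -1.19, -1.17 and -1.38 (adjusted p of 0.052 to 0.073, limma), and with plain background subtraction -1.29, -1.11, -1.13, -1.04 and -1.31. At an unadjusted p of 0.05, Met1h alone was lower among the members, beside 13 of all 64 probes (20.3%), a share close to 1 of 5. None of the 13 had the prefix m, so the share among probes without that prefix was higher. The 95% interval of Met1h ran from -2.33 to -0.04, on a standard error shared between the probes. Its own 3 arrays had an SD of 1.43 and lay on both sides of 0. The exact sign-flip p of Met1h was 0.5, where 3 arrays allow no p below 0.25.

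The members did not stand apart from the other probes in abundance. The median over the 64 mean ratios was -0.90, and the members ranked 9 (Met1h), 14 (Trp1y), 26 (Ile1y), 28 (Met2h) and 33 (Ile2y) of 64 from the lowest. Every probe with the prefix m had a higher ratio than these. The median of all probes was -1.86, 0.02 and -0.58 on arrays 1, 2 and 3. Relative to it the members averaged -0.37 ± 0.61 (Met1h), -0.13 ± 0.32 (Met2h), -0.15 ± 0.29 (Ile1y), -0.09 ± 0.29 (Ile2y) and -0.33 ± 0.37 (Trp1y) (SD, n = 3 arrays), smaller than or close to their spread. The arrays ranked the probes differently, with a Pearson r across the 64 probes of 0.07 between arrays 1 and 2, 0.79 between 1 and 3 and -0.37 between 2 and 3. The direction was kept as the methods state the dyes. A fit to arrays 1 and 3 alone, without array 2, called 23 of 64 probes lower at an adjusted p of 0.05 (limma). None of these 23 had the prefix m, so the share among probes without that prefix was higher. Among them were Met1h (-1.94, adjusted p = 0.0299), Ile1y (-1.52, 0.0452) and Trp1y (-1.74, 0.0299), and not Met2h (-1.25, 0.0933) or Ile2y (-1.43, 0.0538). These limma p values rest on 2 arrays and on an error shared between probes that move together, so the calls do not measure replication and do not set the members apart.

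**Figure D4:**
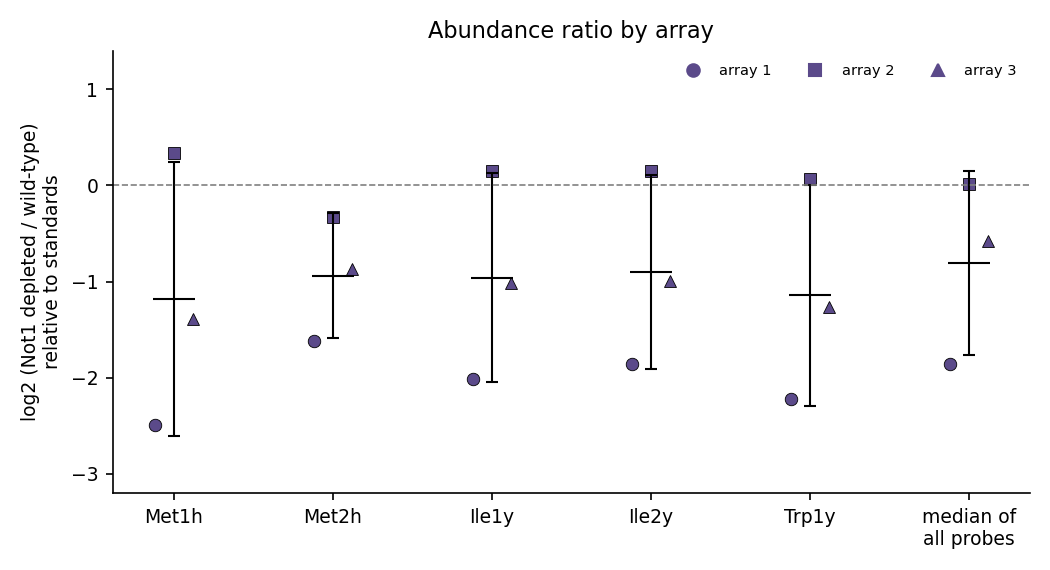
Abundance ratio, as the log2 of depleted over wild-type signal relative to the standards (vertical axis), of the 5 probes and the median of all 64 probes on the 3 abundance arrays, with marker shapes for arrays and bars for mean ± SD. Array 1 is lowest and array 2 highest for every member, and the mean of each member lies near that of all probes.

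Met1h minus Met2h on the abundance arrays was -0.88, 0.66 and -0.51, a mean of -0.24 ± 0.80 (exact sign-flip p = 0.75, with 0.25 the smallest possible). Its sign differed between arrays. Within blocks of the fifth row it was below 0 in 11 of 11 blocks on array 1, above 0 in 11 of 11 on array 2 and below 0 in 10 of 12 on array 3. On array 1 the named Met2h spots were uneven, with an SD of 3.08 in log2 Atto intensity against at most 1.14 on the other arrays. The log2 ratio of a single probe also differed between the Met1h blocks and the Met2h blocks. This difference was -0.31, 0.22 and -0.14 for Ile1y, -0.20, 0.25 and -0.0004 for Ile2y and -0.03, 0.13 and -0.02 for Trp1y. Whether it shifted the named methionine values was not tested.

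The probes most like each member in charged fraction were found by Pearson r over the 6 charging arrays, after removal of each array's median. Met1h was most like Ala2y (0.99) and Gly1y (0.95), and Met2h most like Trp1y (0.94) and Leu3y (0.93). Ile1y was most like mAla1y (0.92) and Gly2y (0.91), and Ile2y most like Arg2y (0.89) and Gln1y (0.88). Trp1y was most like Phe1y (0.98) and Leu3y (0.96). Between the methionine probes r was 0.74 and between the isoleucine probes 0.84, and over all pairs of probes the median was 0.02. These values rest on 6 points that share their array effects.

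Probes named for the same amino acids with the prefix m, mMet1y, mMet2y, mIle1y and mTrp1y, were not called in any of these 3 comparisons either. With plain subtraction of the background, however, mMet1y and mMet2y were among 4 probes called lower in charged fraction. What the prefix means is not explained in the files. Their changes in charged fraction were -0.16, -0.11, 0.17 and -0.45. Their abundance ratios were 0.44, 0.46, -0.08 and -0.28 on the log2 scale, above the mean of every member in each case, a difference that was not tested. The gap was not particular to these amino acids. The lowest ratio of any probe with prefix m was -0.601 (mVal1y), and the highest of any probe without it was -0.622 (Glu1y). The largest of their 4 changes in total signal was 1.39, for mTrp1y (adjusted p = 0.905, limma).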

How the data were processed

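RNA was extracted, oxidized with periodate or not, deacylated, labelled and hybridized by the authors, and the deposited tables hold scanner output per spot (fluorescence intensity and local background in 2 colours, and other columns such as the percent of pixels above background) before any normalization. The image software and its version are not given in the sources used here. The members and lists were chosen with earlier results of these data known.

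Each array has 12 blocks of 11 rows and 11 columns (1452 spots). Names in rows 6 to 8 were taken from the row above and row 5 was left unnamed, since repeated spots then came together. Background was corrected with normexp (offset 50) in limma 3.58.1 under R 4.3.3. Spots with under 50% of pixels above background plus 2 SD in both channels were left out. Log2 ratios of Cy3 to Atto, and log2 Atto intensities, were expressed relative to the median over the 4 standards and averaged per probe, for 64 probes. Both strains (6 charging arrays), and the 3 abundance arrays against 0, were compared with lmFit and eBayes, with Benjamini-Hochberg adjustment over 64 probes at 0.05. limma shares its variance between probes and treats them as independent, although an array moves its probes together. The scripts were tested on simulated data that varied less between arrays after scaling than these. That test checks the code and not the power of the comparisons. Single values and pairs were compared with two-sided exact permutation or sign-flip tests. Arrays give no read depth, and precision is limited by how many there were. Named were the members, the 2 most alike probes of each, the probes with prefix m for the same amino acids, the standards and any called probe.

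Same-numbered arrays of the strains were not said to be paired. Alternatives were other background corrections, scalings and spot summaries, a loess trend, filters, the deposited names, each replicate left out and a replicate block. Added after seeing the data were names for row 5, row 5 alone, blocks with lit blanks left out, and the isoleucine pair. tRNA sequences were read from R64 with Python 3.11.15 and biopython 1.88, and tables and plots were made with pandas 2.3.3 and matplotlib 3.10.9.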

Additional observations from a re-analysis of the deposited data

Results flagged for a closer look

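The spots of row 5 were outside the comparisons but gave signal. At the print positions of Met1h, Met2h, Ile1y and Ile2y their median Atto intensity exceeded the 95th percentile of the blank spots on 8 of 9 arrays each, wild-type charging replicate 1 being the exception. Their log2 ratios differed from those of the named spots by a median of 0.06 for Met1h and Met2h, 0.08 for Ile1y and 0.02 for Ile2y, and by -0.27 to 0.22 at the extremes, both for Met1h. With row 5 included every member had 18 spots.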

How the results depend on the processing

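With plain background subtraction 4 probes, mArg1y, mCys1y, mMet1y and mMet2y, were lower in charged fraction, and the median change of all probes was -0.46. No member was called there, but the changes in charged fraction turned to -0.18 (Met1h), -0.16 (Ile1y) and -0.24 (Ile2y), and that in total signal to 0.048 (Met1h). With a loess trend removed they were -0.11, -0.059 and -0.12, and Met1h minus Met2h was -0.15 in charged fraction (exact p = 0.375) and 0.10 in abundance. The charged fraction change of Trp1y turned to 0.0075 with scaling to the median of all probes, 0.076 without Ser3h, 0.014 with the median of spots and 0.080 with empty spots kept, and the total signal of Ile1y was 0.0071 with the median of spots. With the names as deposited, charged fraction changes were -0.12 (Met1h) and 0.047 (Met2h), total signal changes 0.60 (Met1h), 0.11 (Met2h) and 0.13 (Trp1y), and the abundance ratio of Trp1y 0.14. Met1h minus Met2h was then -0.10 in charged fraction, -0.17 between the strains and 0.032 in abundance. With the blocks that held lit blanks left out, added after seeing the data, Met1h minus Met2h was -0.032. The cause of these turns was not tested, and every member value named here stayed outside the threshold.

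Leaving out 1 array in turn gave charged fraction changes of -0.25 to 0.59 (Met1h), -0.73 to 0.20 (Met2h), -0.082 to 0.61 (Ile1y), -0.11 to 0.44 (Ile2y) and -0.43 to 0.29 (Trp1y), with 0 probes called each time. Total signal changes ranged from -0.75 to 0.10 (Met1h), -1.03 to -0.17 (Met2h), -1.34 to 0.25 (Ile1y), -0.83 to 0.035 (Ile2y) and -0.62 to 0.15 (Trp1y). Abundance ratios ranged from -1.94 to -0.52 (Met1h), -1.25 to -0.60 (Met2h), -1.52 to -0.43 (Ile1y), -1.43 to -0.42 (Ile2y) and -1.74 to -0.60 (Trp1y), and the count of lower probes from 0 to 23, the latter without array 2. Met1h minus Met2h ranged from -0.077 to 0.095 in charged fraction, 0.31 to 0.56 between the strains and -0.70 to 0.073 in abundance. Ile1y minus Ile2y ranged from -0.35 to -0.27, each with an exact p of 0.0625, the smallest that 5 arrays allow.

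Deviations of same-numbered arrays from their group means correlated at 0.09, -0.61 and -0.06 across probes, so the numbers were not taken as pairs, and with the replicate block 0 probes were called in charged fraction and 0 in total signal. Of the alternatives that did not leave out an array, 266 values stayed on the same side of 0 and of the threshold, 24 turned and 1 count moved. The intervals of the charged fraction changes, about 0.92 on either side, rest on a variance that limma shared between all 64 probes. As an array moves its probes together, these intervals can be too narrow for what 6 arrays could show.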
